A study of Homo sapiens with 9 samples.

Results

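The 42 genes described here encode the enzymes that make, elongate and desaturate fatty acids, assemble them into triglyceride, and coat or empty lipid droplets. They were taken as a list of symbols and matched to the Ensembl identifiers of the count files. All 42 were found among 62703 identifiers. Of these, 39 had enough counts to be tested, together with 17623 genes in all. The cells were HepG2, 1 established line from a human hepatocellular carcinoma. They were left untreated (control) or given eliglustat at 20 µM or 30 µM for 72 h, and each of the 3 groups gave 3 RNA sequencing libraries. Eliglustat inhibits glucosylceramide synthase, the first enzyme of glycosphingolipid synthesis. No culture time is stated for the untreated cells, nor whether replicate libraries stem from different cultures. Their spread, and every p-value built on it, may therefore be technical.

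Hepatocytes build fatty acids from acetyl-CoA, join them to a glycerol backbone step by step, and store the resulting triglyceride in droplets or load it onto lipoproteins for secretion. SREBP-1, the product of SREBF1, and the carbohydrate-responsive factor ChREBP, the product of MLXIPL, drive transcription of most of the synthesis genes in the liver. Perilipins coat the droplet and limit its lipolysis, which starts with the triglyceride lipase encoded by PNPLA2.

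The libraries held 21103757 to 26782810 counts in genes. Between 12.4% and 12.8% of records in controls, 13.3% and 15.5% at 20 µM and 14.8% and 19.5% at 30 µM had no unique alignment. Mitochondrially encoded mRNAs took 2.99% to 3.99%, 3.50% to 3.85% and 5.19% to 5.78% of counts in genes. The part of these differences in the results was not tested. In 3 libraries (control 1, 20 µM library 3 and 30 µM library 3) the deviations from the group mean moved together, with correlations across genes of 0.331 to 0.352. All 10 hepatocyte markers were detected, at a summed 14779 to 15567 CPM in controls, 17113 to 18076 CPM at 20 µM and 16012 to 17187 CPM at 30 µM. The markers did not move together. At 30 µM against control, by the test given below, ALB (log2 -0.47), AFP (-0.52), FGB (-0.36) and APOH (-0.78) were lower. TTR (1.25), APOA2 (0.80), AHSG (0.42) and SERPINA1 (0.23) were higher, and APOA1 and TF were not past the test. PTPRC of leukocytes, COL1A2 and DCN of fibroblasts, and ADIPOQ, LEP, FABP4 and LPL of adipocytes had 0 counts in every library. The summed levels stayed at or under 0.646 CPM for the 6 fibroblast markers, 6.34 CPM for the 5 endothelial and 5.02 CPM for the 6 adipocyte markers. The 6 leukocyte markers summed to 451 to 497, 439 to 475 and 638 to 667 CPM in the same order of dose, nearly all of it LYZ, with means of 469, 452 and 655 CPM.

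At 20 µM most of these lipid genes were higher than in controls, while at 30 µM they were divided between genes that were higher and genes that were lower. At 20 µM against control, 27 of the 39 tested rose and 2 fell, and 10 missed the threshold. Of all genes, 34.2% were called, 17.2% higher and 16.9% lower. At 30 µM against control, 21 rose and 14 fell, with 4 not past the test. Of all genes, 60.8% were called, 29.5% higher and 31.3% lower. At 30 µM against 20 µM, 15 rose and 19 fell, which left 5, and 57.0% of all genes were called, 28.0% higher and 28.9% lower. The 3 comparisons share libraries and are not independent. Shares of all genes, here and below, include genes with few counts, whereas each of the 39 averaged at least 50 counts per library. Testing only genes with such a mean called 5944, 9224 and 8759 genes in the same order of comparisons. These were larger shares of the genes tested than those above, while 29, 35 and 35 lipid genes were called. The shares of all genes called therefore overstate how far the lipid genes stood apart. Changes past the test and of at least 1 log2 unit were found for 1 of the 39 genes at 20 µM against control, beside 1.75% of all genes. There were 10 such genes at 30 µM against control, beside 16.0%, and 6 between the doses, beside 11.6%. The test was the quasi-likelihood test of edgeR over all 9 libraries, with p-values adjusted by Benjamini-Hochberg over all genes tested and a threshold of 0.05. Levels below are in CPM, based on library sizes scaled by TMM, and changes are log2 values ± SE. CPM is a share of the RNA of a whole culture, so a smaller share of cells that express a gene and less of its RNA per cell cannot be told apart.

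The median log2 change of the 39 genes was 0.26 at 20 µM against control, beside 0.01 over all genes tested. At 30 µM against control it was 0.27, beside -0.04 over all genes, and at 30 µM against 20 µM it was -0.05, beside -0.03. The log2 changes ran from -0.38 to 1.06 at 20 µM against control and from -1.49 to 1.89 at 30 µM against control. The libraries of both groups did not overlap for 31 of the 39 genes at 20 µM against control, where 44.5% of all genes did not. For 30 µM against control this held for 34 genes, beside 65.0% of all genes, and between the doses for 35 genes, beside 61.1%. Without the 3 libraries that deviated together, an alternative added after the data were seen, the lipid genes called against control were 27 higher and 3 lower at 20 µM and 20 higher and 14 lower at 30 µM, and between the doses 15 higher and 18 lower. The scaling mattered for small changes at 30 µM. Scaled by library size alone, the median of all genes at 30 µM against control moved by -0.21, the split of all called genes became 3530 higher and 8022 lower in place of 5192 and 5515, and that of the lipid genes became 18 higher and 19 lower. Against 20 µM, the same scaling gave 3029 higher and 7690 lower in place of 4942 and 5099 over all genes, with a median moved by -0.19, and 12 higher and 23 lower of the lipid genes.

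**Figure D1:**
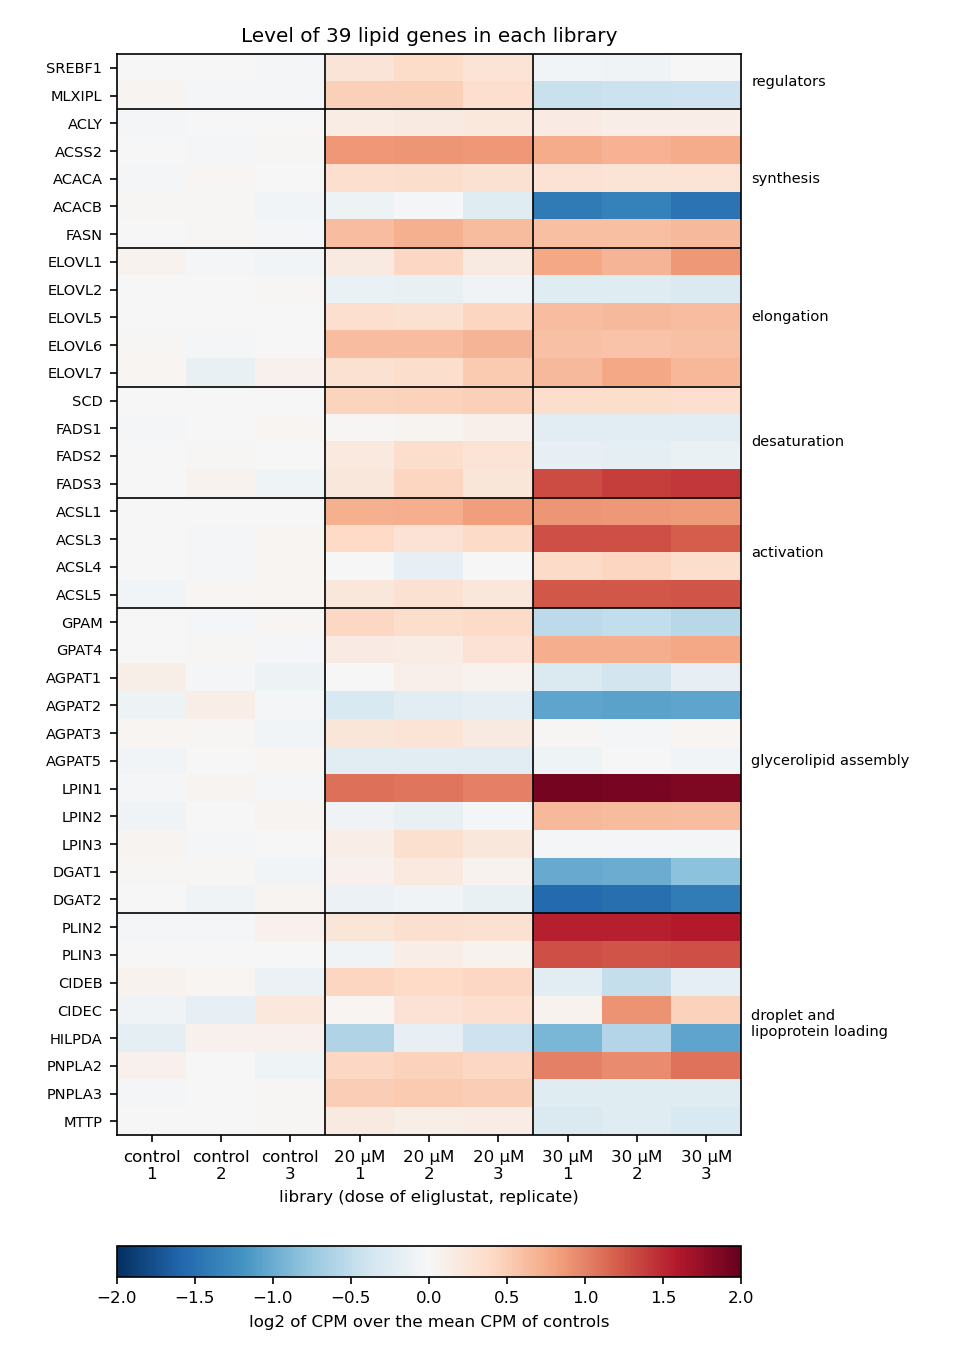
Heat map of 39 lipid genes (rows, grouped by step) in the 9 libraries (columns, by dose and replicate). Colour gives the log2 of a library's CPM over the mean CPM of the controls, from -2 to 2. The columns at 20 µM are mostly pale red, while those at 30 µM hold both dark red rows such as LPIN1 and PLIN2 and dark blue rows such as DGAT2 and ACACB.

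Of the 3 regulators, both of those tested rose at 20 µM against control and were lower at 30 µM than at 20 µM. Over all genes, 17.2% were called higher at 20 µM against control and 28.9% lower at 30 µM than at 20 µM. SREBF1 was at 163, 164 and 160 CPM in controls, 194, 210 and 197 CPM at 20 µM and 156, 154 and 163 CPM at 30 µM. Its libraries at 20 µM lay above all others, and those of controls and 30 µM overlapped. The log2 change was 0.31 ± 0.0372 at 20 µM against control (adjusted p = 4.29e-08) and -0.04 ± 0.0375 at 30 µM against control (adjusted p = 0.41). The second of these values was past the test with upper-quartile scaling (-0.10, adjusted p = 0.0226) and with library size alone (-0.25, adjusted p = 4.57e-07). MLXIPL was at 225, 214 and 211 CPM in controls, 300, 301 and 274 CPM at 20 µM and 159, 160 and 162 CPM at 30 µM, so that no library of a group overlapped another group. It rose by log2 0.43 ± 0.0373 at 20 µM against control (adjusted p = 3.92e-11) and fell by 0.43 ± 0.0380 at 30 µM against control (adjusted p = 6.67e-12). THRSP, or Spot 14, a lipogenic protein of the liver, had at most 2 counts in any library and was not tested. A count of 0 allows up to 3 counts, which came to 0.108 to 0.139 CPM in these libraries, a limit that covers counting error only.

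Of the 5 genes of fatty acid synthesis, 4 rose at both doses against control, and ACACB fell at 30 µM. The share of all genes called higher against control was 17.2% at 20 µM and 29.5% at 30 µM. With library size alone ACLY was lower at 30 µM. FASN, the fatty acid synthase that builds palmitate, was at 4223, 4305 and 4171 CPM in controls, 6464, 6922 and 6594 CPM at 20 µM and 6442, 6423 and 6607 CPM at 30 µM. Both doses lay clear of the controls and overlapped each other. FASN rose 1.57-fold at 20 µM against control (log2 0.65 ± 0.0294, adjusted p = 6.28e-18) and 1.53-fold at 30 µM against control (0.62 ± 0.0294, adjusted p = 8.99e-19). The difference of 30 µM from 20 µM was -0.04 ± 0.0293 (adjusted p = 0.293), but -0.11 (adjusted p = 0.00123) with upper-quartile scaling and -0.23 (adjusted p = 6.89e-09) with library size alone. ACSS2, which makes acetyl-CoA from acetate, had 121, 120 and 124 CPM in controls, 222, 225 and 222 CPM at 20 µM and 204, 197 and 204 CPM at 30 µM. It was highest at 20 µM, without overlap between any groups. The rise was 1.83-fold at 20 µM against control (log2 0.87 ± 0.0349, adjusted p = 3.47e-19) and 1.66-fold at 30 µM against control (0.73 ± 0.0350, adjusted p = 1.08e-18), and 30 µM was lower than 20 µM by 0.14 ± 0.0342 log2 units (adjusted p = 5.86e-04).

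The acetyl-CoA carboxylases parted at the higher dose. ACACA, the cytosolic enzyme that makes malonyl-CoA for synthesis, averaged 350 ± 5.24 CPM in controls, 439 ± 7.09 CPM at 20 µM and 424 ± 2.29 CPM at 30 µM (SD, n = 3 each). It rose by log2 0.32 at 20 µM (adjusted p = 2.62e-10) and by 0.27 at 30 µM (adjusted p = 1.98e-09), both against control, and the second call was lost with library size alone (0.06, adjusted p = 0.0665). ACACB, the mitochondrial enzyme whose malonyl-CoA restrains fatty acid entry into mitochondria, was at 74.3, 74.4 and 70.2 CPM in controls, 67.8, 70.8 and 62.0 CPM at 20 µM and 27.5, 28.5 and 26.2 CPM at 30 µM. All libraries at 30 µM lay far below the others, and those of controls and 20 µM overlapped. ACACB fell 2.66-fold at 30 µM against control (log2 -1.41 ± 0.0549, adjusted p = 3.25e-21) and 2.44-fold at 30 µM against 20 µM (adjusted p = 8.90e-20). At 20 µM against control the change was -0.13 ± 0.0505 (adjusted p = 0.0523), past the test without control 3 (0.0373) or 20 µM library 2 (0.014). ACLY, which releases acetyl-CoA from citrate, rose by log2 0.18 ± 0.0296 at 20 µM and 0.14 ± 0.0296 at 30 µM against control (adjusted p = 8.07e-06 and 1.01e-04). Its direction at 30 µM flipped to -0.068 (adjusted p = 0.0381) with library size alone.

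**Figure D2:**
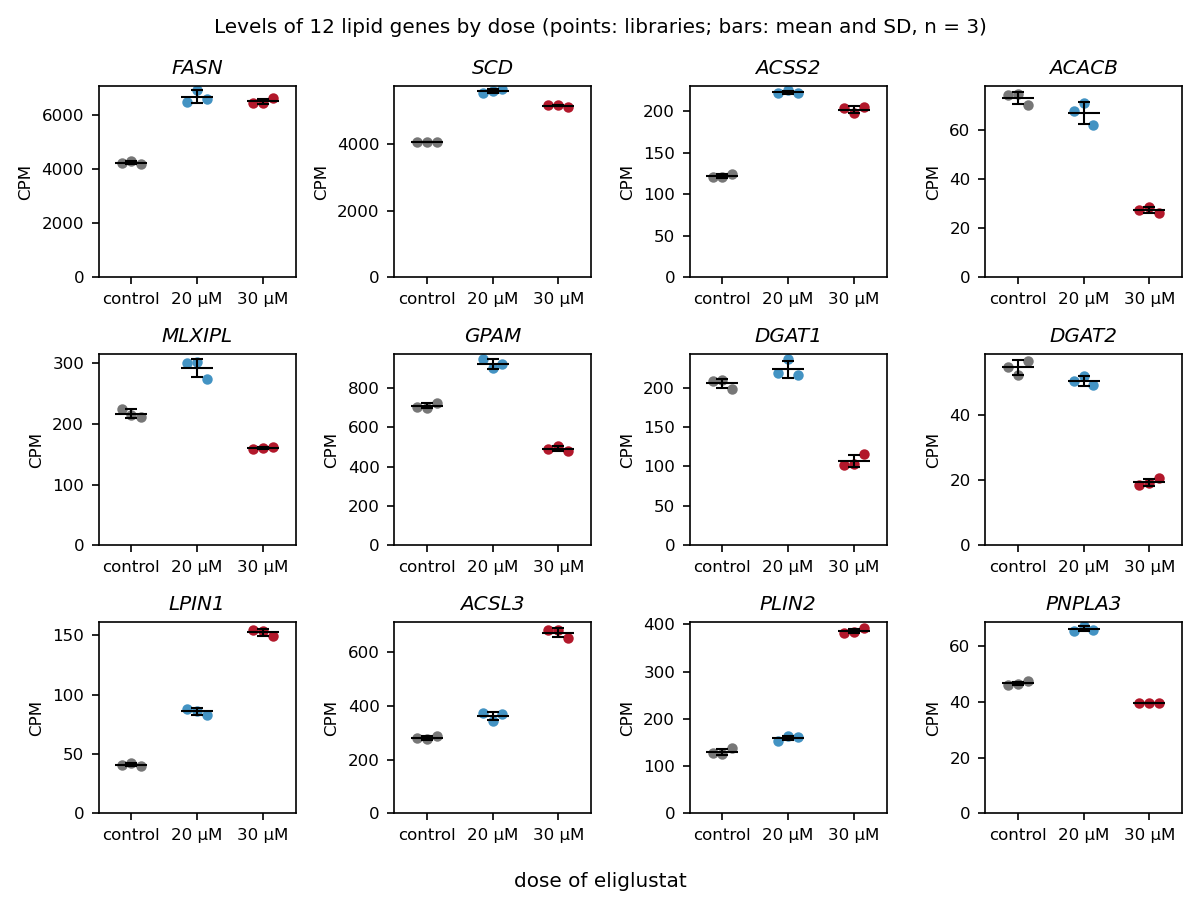
CPM of 12 lipid genes (vertical axes, from 0) by dose of eliglustat (horizontal axes). Points are libraries, and bars give the mean and SD of n = 3. FASN, SCD and ACSS2 stand above control at both doses, MLXIPL, GPAM and PNPLA3 are highest at 20 µM and lowest at 30 µM, and LPIN1, ACSL3 and PLIN2 are highest at 30 µM.

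Among the 5 elongases, 4 rose and 1 fell both at 20 µM and at 30 µM against control. Over all genes tested, 34.2% and 60.8% were called at these doses. ELOVL1, which extends saturated very long chains, was at 45.8, 42.9 and 42.2 CPM in controls, 49.4, 58.1 and 49.3 CPM at 20 µM and 74.9, 70.0 and 79.9 CPM at 30 µM. The 3 groups did not overlap, and the log2 change was 0.26 ± 0.0618 at 20 µM (adjusted p = 0.00167) and 0.78 ± 0.0608 at 30 µM (adjusted p = 2.24e-11) against control. ELOVL5, an elongase of polyunsaturated chains, had 155, 152 and 153 CPM in controls, 194, 189 and 205 CPM at 20 µM and 236, 241 and 236 CPM at 30 µM. It too stood apart at every dose, with rises of log2 0.36 ± 0.0359 at 20 µM and 0.63 ± 0.0359 at 30 µM against control (adjusted p = 9.45e-10 and 9.13e-17). ELOVL7, a further elongase of long saturated chains, had 15.9, 13.9 and 16.4 CPM in controls, 19.0, 19.8 and 22.2 CPM at 20 µM and 24.2, 26.2 and 24.4 CPM at 30 µM. Its groups did not overlap either, and it rose by 0.39 ± 0.0790 at 20 µM and 0.69 ± 0.0782 at 30 µM against control (adjusted p = 1.44e-04 and 2.39e-09). ELOVL6, which turns palmitate into stearate, rose by 0.63 at 20 µM and 0.58 at 30 µM against control. ELOVL2, which extends the longest polyunsaturated chains, fell by 0.11 ± 0.0376 at 20 µM (adjusted p = 0.0177) and by 0.26 ± 0.0379 at 30 µM (adjusted p = 3.56e-07) against control. The call at 20 µM was lost without control 3 (adjusted p = 0.0665), 20 µM library 1 (0.0548) or 20 µM library 2 (0.0647).

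The desaturases did not move as 1 group. SCD, the stearoyl-CoA desaturase that makes oleate, was at 4070, 4082 and 4074 CPM in controls, 5530, 5605 and 5672 CPM at 20 µM and 5176, 5178 and 5137 CPM at 30 µM. It was above control at both doses and highest at 20 µM, with no overlap. SCD rose 1.37-fold at 20 µM (log2 0.46 ± 0.0271, adjusted p = 4.87e-15) and 1.27-fold at 30 µM (0.34 ± 0.0271, adjusted p = 5.56e-13) against control, and was lower at 30 µM than at 20 µM by 0.12 ± 0.0270 (adjusted p = 3.64e-04). FADS2, which catalyses the first desaturation of polyunsaturated fatty acids, was at 236, 241 and 237 CPM in controls, 273, 304 and 289 CPM at 20 µM and 213, 207 and 218 CPM at 30 µM. It rose by 0.28 ± 0.0366 at 20 µM against control (adjusted p = 1.93e-07) and fell by 0.16 ± 0.0369 at 30 µM against control (adjusted p = 2.76e-04). FADS1, which acts later on the same chains, was at 296, 301 and 310 CPM in controls, 307, 314 and 323 CPM at 20 µM and 260, 260 and 258 CPM at 30 µM. Controls and 20 µM overlapped (log2 0.06 ± 0.0327, adjusted p = 0.189), and 30 µM lay below both, lower than control by 0.22 ± 0.0329 (adjusted p = 5.36e-07).

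FADS3, a desaturase of sphingoid bases, went the other way at 30 µM. It was at 12.4, 13.0 and 11.7 CPM in controls, 14.5, 16.7 and 14.6 CPM at 20 µM and 30.6, 32.3 and 32.9 CPM at 30 µM. The rise was 1.23-fold at 20 µM (log2 0.30 ± 0.0801, adjusted p = 0.00294) and 2.59-fold at 30 µM (1.37 ± 0.0761, adjusted p = 5.26e-17) against control. SCD5, the other human stearoyl-CoA desaturase, had at most 1 count in any library and was not tested. In GENCODE 29, FADS1 lies within the span of FADS2 on the opposite strand of chromosome 11, and they share 490 bases of exon. Since no source used here gives the strand setting of the counting, it is not known how reads there were counted.

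Long-chain acyl-CoA synthetases, which activate free fatty acids by joining them to coenzyme A, were higher at 30 µM in all 4 genes, both against control and against 20 µM, though with library size alone ACSL1 was lower than at 20 µM. At 20 µM against control, 3 of the 4 rose. ACSL3, which acts on the endoplasmic reticulum and on growing lipid droplets, was at 279, 276 and 288 CPM in controls, 372, 345 and 368 CPM at 20 µM and 683, 684 and 652 CPM at 30 µM. Its groups stood well apart. It rose 1.29-fold at 20 µM (log2 0.36 ± 0.0342, adjusted p = 2.26e-10) and 2.39-fold at 30 µM (1.26 ± 0.0344, adjusted p = 1.83e-25) against control. ACSL5 was at 64.6, 68.2 and 69.5 CPM in controls, 79.2, 83.4 and 79.0 CPM at 20 µM and 160, 159 and 161 CPM at 30 µM. It had the same order without overlap, with rises of 0.26 ± 0.0418 at 20 µM and 1.25 ± 0.0410 at 30 µM against control (adjusted p = 8.16e-06 and 3.29e-23). ACSL1, the main form of hepatocytes and adipocytes, had 71.5, 72.5 and 71.5 CPM in controls, 118, 119 and 128 CPM at 20 µM and 132, 131 and 129 CPM at 30 µM. Most of its rise was present at 20 µM, with 0.76 ± 0.0407 at 20 µM and 0.87 ± 0.0407 at 30 µM (adjusted p = 4.71e-16 and 6.06e-19 against control). The difference of 30 µM from 20 µM, 0.11 ± 0.0396 (adjusted p = 0.0209), was lost without 20 µM library 1 (adjusted p = 0.118), 20 µM library 2 (0.0754), 30 µM library 1 (0.0628) or 30 µM library 2 (0.0575). With library size alone it turned to -0.086 (adjusted p = 0.0594). ACSL4, which prefers arachidonic acid, averaged 398 ± 11.3 CPM in controls, 384 ± 24.5 CPM at 20 µM and 521 ± 14.3 CPM at 30 µM (SD, n = 3 each), and rose at 30 µM against control by 0.39 ± 0.0378 (adjusted p = 3.67e-10).

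Glycerolipid assembly held the largest changes in both directions at 30 µM against control among the 39 genes tested. Among its 11 genes, 6 rose and 1 fell at the lower dose, and 3 rose and 5 fell at the higher dose, each against control. The shares of all genes called in these comparisons were 34.2% and 60.8%. At 30 µM against 20 µM all 11 were called, 4 higher and 7 lower, beside 57.0% of all genes called. AGPAT5, among the higher ones, turned to -0.027 with library size alone.

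The acyltransferases that start the pathway parted. GPAM, the mitochondrial enzyme that puts the first acyl chain on glycerol phosphate, was at 706, 699 and 724 CPM in controls, 950, 901 and 921 CPM at 20 µM and 492, 505 and 481 CPM at 30 µM. The 3 groups did not overlap. GPAM rose 1.30-fold at 20 µM against control (log2 0.38 ± 0.0313, adjusted p = 1.14e-11), fell 1.44-fold at 30 µM against control (-0.53 ± 0.0316, adjusted p = 4.16e-16) and was 1.88-fold lower at 30 µM than at 20 µM (adjusted p = 3.23e-22). GPAT4, an enzyme of the endoplasmic reticulum for the same step, averaged 61.0 ± 0.890 CPM in controls, 70.0 ± 3.66 CPM at 20 µM and 102 ± 2.10 CPM at 30 µM (SD, n = 3 each). It rose by 0.20 ± 0.0451 at 20 µM and 0.74 ± 0.0444 at 30 µM against control (adjusted p = 6.41e-04 and 3.92e-16). 

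The AGPAT enzymes add the second acyl chain. AGPAT2, whose loss causes a congenital lipodystrophy, was at 6.67, 7.84 and 7.04 CPM in controls, 5.81, 6.14 and 6.33 CPM at 20 µM and 3.47, 3.42 and 3.47 CPM at 30 µM. Every library at 30 µM held less than every other library, and the fall against control was 2.07-fold (log2 -1.05 ± 0.134, adjusted p = 2.52e-08). AGPAT3 was at 138, 138 and 130 CPM in controls, 159, 164 and 152 CPM at 20 µM and 137, 133 and 139 CPM at 30 µM. It rose by 0.23 ± 0.0388 at 20 µM against control (adjusted p = 1.36e-05), while 30 µM overlapped control (0.01 ± 0.0391, adjusted p = 0.825, but -0.20, adjusted p = 3.61e-05, with library size alone). AGPAT5 fell by 0.22 at 20 µM against control (adjusted p = 1.92e-04) and had a change of -0.05 at 30 µM against control (adjusted p = 0.318). The second value was past the test with upper-quartile scaling (-0.11, adjusted p = 0.0268) and with library size alone (-0.26, adjusted p = 6.22e-06). AGPAT1 was at 0.06 at 20 µM (adjusted p = 0.527) and fell by 0.27 at 30 µM (adjusted p = 0.00104) against control. In the GENCODE annotation 29.9% of its exon bases lie under PPT2-EGFL8 on the other strand, which averaged at most 0.675 CPM in a group. LPIN3 shares 13.5% of its exon bases with EMILIN3 on the other strand, at no more than 0.779 CPM. Antisense transcripts on the other strand lie over 17.9% of the exon bases of PLIN3 and 10.4% of those of PNPLA2. A transcript of the same GENCODE class lies over 10.8% of those of DGAT1, but on the strand of DGAT1 itself. The levels of these transcripts are not given here.

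The lipins remove phosphate from phosphatidate to leave diacylglycerol. LPIN1 had 40.5, 42.6 and 40.1 CPM in controls, 88.0, 86.4 and 82.9 CPM at 20 µM and 154, 154 and 149 CPM at 30 µM. It climbed at each dose without overlap and had the largest rise of the 39 genes against control at both doses. The rise was 2.09-fold at 20 µM (log2 1.06 ± 0.0438, adjusted p = 6.36e-19) and 3.71-fold at 30 µM (1.89 ± 0.0433, adjusted p = 1.47e-27). LPIN2 was at -0.08 ± 0.0416 at 20 µM (adjusted p = 0.124) and rose by 0.63 ± 0.0410 at 30 µM (adjusted p = 2.98e-15) against control. Without control 1 the value at 20 µM was past the test (-0.12, adjusted p = 0.0351). LPIN3 was at 31.1, 28.9 and 29.6 CPM in controls, 32.8, 37.3 and 35.1 CPM at 20 µM and 29.2, 29.04 and 29.2 CPM at 30 µM. It was highest at 20 µM, with 0.23 ± 0.0601 against control (adjusted p = 0.0028), and its change at 30 µM against control was -0.04 ± 0.0614 (adjusted p = 0.639), but -0.25 (adjusted p = 7.22e-04) with library size alone.

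Both enzymes that add the last acyl chain fell at 30 µM. DGAT1, which re-esterifies incoming fatty acids in the endoplasmic reticulum, was at 209, 209 and 199 CPM in controls, 219, 236 and 216 CPM at 20 µM and 102, 103 and 116 CPM at 30 µM. DGAT2, which also acts at the droplet surface and on newly made fatty acids, was at 54.8, 52.3 and 56.7 CPM in controls, 50.3, 52.1 and 49.2 CPM at 20 µM and 18.6, 19.1 and 20.6 CPM at 30 µM. Every library at 30 µM lay far below the other groups for both genes. DGAT1 fell 1.92-fold (log2 -0.94 ± 0.0450, adjusted p = 2.30e-16) and DGAT2 2.81-fold (-1.49 ± 0.0582, adjusted p = 3.74e-21) at 30 µM against control. No other of the 39 genes fell as far as DGAT2. At 20 µM against control DGAT1 had a small rise of 0.12 ± 0.0435 (adjusted p = 0.0323) and DGAT2 a change of -0.11 ± 0.0528 (adjusted p = 0.1). The rise of DGAT1 was lost without control 2 (adjusted p = 0.053), control 3 (0.17) or 20 µM library 2 (0.192) and with library size alone (0.0518).

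**Figure D3:**
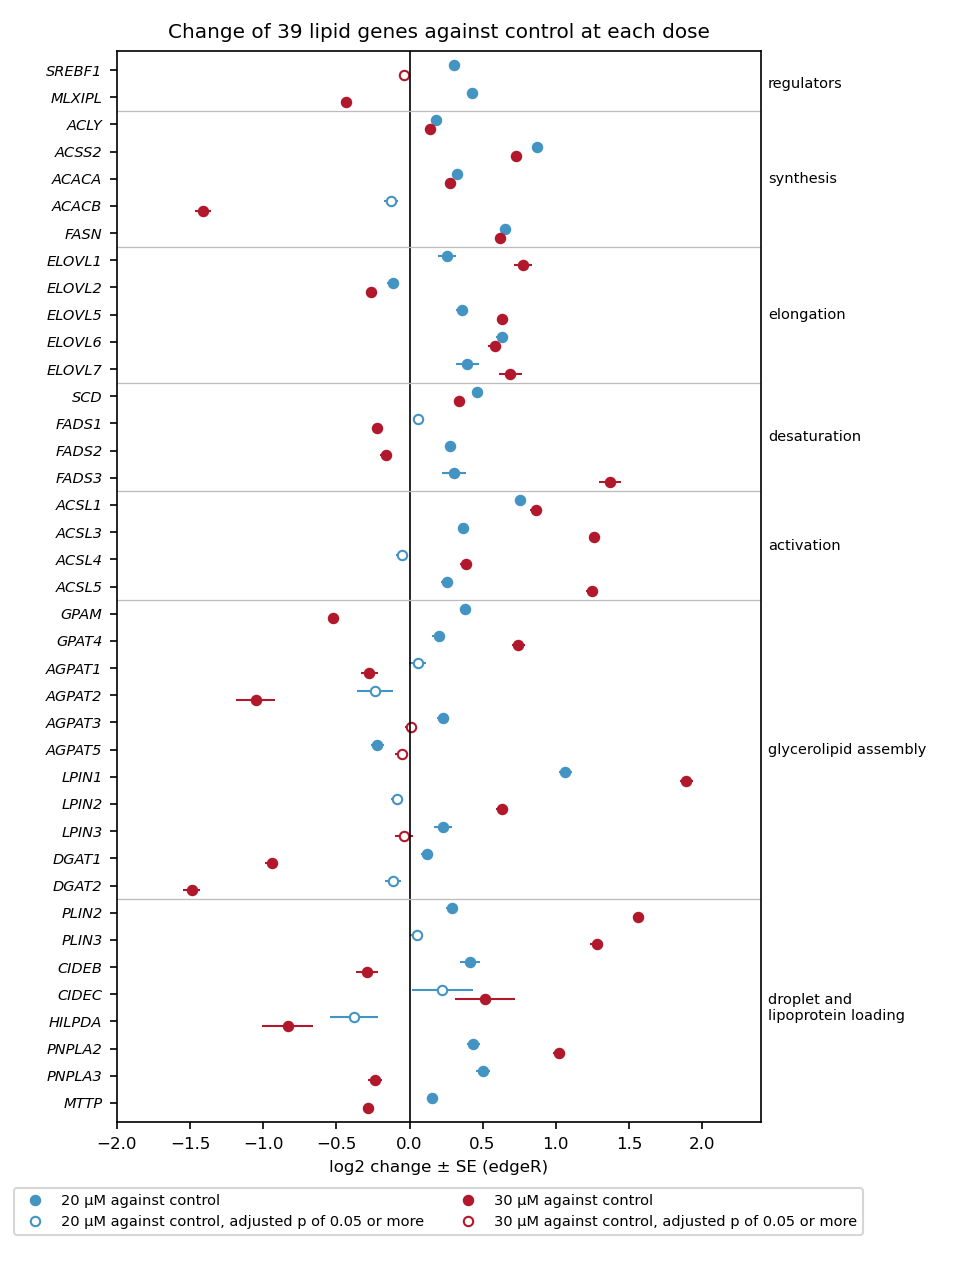
Log2 change ± SE from edgeR (horizontal axis) of 39 lipid genes (rows, grouped by step) at 20 µM against control (blue) and 30 µM against control (red). Open points were not past the adjusted p threshold of 0.05. Both sets share the control libraries. At 30 µM the values spread from -1.49 for DGAT2 to 1.89 for LPIN1.

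At the droplet, the coat genes PLIN2 and PLIN3 and the lipase PNPLA2 rose at 30 µM against control, while PNPLA3, MTTP, CIDEB and HILPDA fell. Of the 8 droplet and lipoprotein genes tested, 5 were called at 20 µM against control, all of them higher. At 30 µM 4 rose and 4 fell. Against control, 34.2% of all genes were called at 20 µM and 60.8% at 30 µM. PLIN2, the perilipin of hepatocyte droplets, was at 127, 127 and 138 CPM in controls, 154, 164 and 161 CPM at 20 µM and 382, 385 and 392 CPM at 30 µM. Its groups did not overlap, and 30 µM stood far above both others. PLIN2 rose 1.22-fold at 20 µM (log2 0.29 ± 0.0378, adjusted p = 1.71e-07) and 2.96-fold at 30 µM (1.57 ± 0.0376, adjusted p = 5.64e-27) against control. PLIN3, which moves from the cytosol onto new droplets, was at 86.1, 85.3 and 85.4 CPM in controls, 81.6, 94.1 and 90.0 CPM at 20 µM and 209, 205 and 209 CPM at 30 µM. Here 20 µM overlapped control (0.05 ± 0.0431, adjusted p = 0.426), and the rise at 30 µM against control was 2.43-fold (1.28 ± 0.0421, adjusted p = 3.57e-23). The perilipins outside the 42 genes, named after their values were seen, were lower at 30 µM than in controls. PLIN1, the perilipin of adipocytes, averaged 0.431 ± 0.257 CPM at 30 µM and 1.61 ± 0.544 CPM in controls (SD, n = 3 each; log2 -1.84, adjusted p = 3.54e-05). PLIN4 averaged 8.74 ± 1.05 and 11.5 ± 0.537 CPM in the same groups (-0.40, adjusted p = 0.0013). PLIN5, which links droplets to mitochondria, averaged 0.948 ± 0.357 and 1.53 ± 0.324 CPM in these groups (-0.68, adjusted p = 0.0397). Counts were few, at 3 to 60 per library for PLIN1 and 16 to 51 for PLIN5, and PLIN5 overlapped between control and 30 µM. PNPLA2, the adipose triglyceride lipase, was at 100, 95.0 and 89.0 CPM in controls, 127, 131 and 127 CPM at 20 µM and 192, 183 and 202 CPM at 30 µM. It rose without overlap at each dose, by 0.44 ± 0.0432 at 20 µM and 1.02 ± 0.0429 at 30 µM against control (adjusted p = 8.33e-10 and 5.00e-20).

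PNPLA3, a lipase relative of hepatocyte droplets, was at 46.2, 46.6 and 47.4 CPM in controls, 65.7, 67.4 and 65.9 CPM at 20 µM and 39.7, 39.6 and 39.6 CPM at 30 µM. Its libraries agreed closely within each group and the groups did not overlap. It rose 1.42-fold at 20 µM (log2 0.50 ± 0.0467, adjusted p = 1.53e-10) and fell 1.18-fold at 30 µM (-0.24 ± 0.0486, adjusted p = 7.64e-05) against control. MTTP, which loads triglyceride onto apolipoprotein B, was at 231, 230 and 236 CPM in controls, 263, 253 and 259 CPM at 20 µM and 189, 196 and 188 CPM at 30 µM. It also rose at 20 µM, by 0.15 ± 0.0333 (adjusted p = 4.26e-04), and fell at 30 µM, by 0.28 ± 0.0337 (adjusted p = 7.14e-09), against control. CIDEB, which helps droplets grow and lipoproteins take up lipid, was at 25.0, 24.6 and 22.0 CPM in controls, 32.2, 31.3 and 31.8 CPM at 20 µM and 20.7, 17.1 and 20.7 CPM at 30 µM. It rose by 0.41 ± 0.0705 at 20 µM (adjusted p = 1.50e-05) and fell by 0.29 ± 0.0740 at 30 µM (adjusted p = 0.00102) against control. CIDEB is uncertain, since 61.1% of its exon bases lie under NOP9 and 39.9% under LTB4R2 on the opposite strand. NOP9 had log2 changes of -0.20 at 20 µM (adjusted p = 0.00143) and -0.11 at 30 µM (adjusted p = 0.039) against control. It averaged 59.4, 51.9 and 54.9 CPM in controls, at 20 µM and at 30 µM, above the 23.9, 31.8 and 19.5 CPM of CIDEB. LTB4R2 averaged at most 3.41 CPM in a group.

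The other droplet genes had few counts. HILPDA, an inhibitor of the PNPLA2 lipase, had 56 to 144 counts per library. It averaged 4.89 ± 0.505 CPM in controls, 3.76 ± 0.592 CPM at 20 µM and 2.73 ± 0.469 CPM at 30 µM (SD, n = 3 each). It fell 1.78-fold at 30 µM against control (log2 -0.83 ± 0.172, adjusted p = 8.99e-05). At 20 µM against control it had a change of -0.38 ± 0.165 (adjusted p = 0.0753), past the test without 20 µM library 2 (0.0424). CIDEC, which fuses droplets, had 47 to 108 counts per library and overlapped between control and 30 µM. Its rise at 30 µM against control, 0.52 ± 0.203 (adjusted p = 0.0282), was lost without control 1 (0.0781), control 2 (0.101), 30 µM library 2 (0.31, log2 0.27) or the 3 libraries that deviated together (0.0787), and with limma voom (0.0556), upper-quartile scaling (0.0521) or library size alone (0.191). G0S2, the other inhibitor of this lipase, had at most 3 counts in any library and was not tested.

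Levels can be set against each other only per length, here as CPM per kilobase of exon in GENCODE 29, which may not be the annotation that was counted. On that scale SCD was the highest of the 42 genes in controls at 760 ± 1.09, followed by FASN at 452 ± 7.25 (SD, n = 3 each). Both stayed the highest at 30 µM, at 963 ± 4.27 for SCD and 693 ± 10.8 for FASN. DGAT1 stood above DGAT2 in every group, at 49.7, 54.1 and 25.9 against 6.91, 6.39 and 2.46 CPM per kilobase in controls, at 20 µM and at 30 µM. PLIN2 and PLIN3 were at 25.7 and 30.4 CPM per kilobase in controls and at 75.95 and 73.9 at 30 µM. On GRCh38, FASN lies at chromosome 17: 82078333-82098332, SCD at chromosome 10: 100347124-100364834 and LPIN1 at chromosome 2: 11677595-11827409. PLIN2 lies at chromosome 9: 19108375-19149290, ACACB at chromosome 12: 109116595-109268226 and DGAT2 at chromosome 11: 75759512-75801535.

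Promoter windows from RefSeq (GRCh38.p14), 250 bases before to 50 bases after a gene's start, were matched for 34 of the 42 genes. There was none for AGPAT5, DGAT1, DGAT2, FASN, GPAT4, HILPDA, LPIN3 and PNPLA3. The windows were searched on both strands for the sterol regulatory element that SREBPs bind, as TCACNCCAC. It was in the windows of 3 genes, PNPLA2, ACSL1 and CIDEC. That made 5.36% of the 56 windows of these genes, against 1.13% of all 35116 windows. These 3 windows are shown because they carry the element. The match, in capitals, lies on the reverse strand of the gene in each and overlaps no other motif searched. Its first base is 153 bases before the start for PNPLA2 (chr11:818664-818963, + strand). It is 242 before for 1 of the 5 starts of ACSL1 (chr4:184805504-184805803, - strand) and 101 before for 1 of the 2 starts of CIDEC (chr3:9878763-9879062, - strand).
PNPLA2: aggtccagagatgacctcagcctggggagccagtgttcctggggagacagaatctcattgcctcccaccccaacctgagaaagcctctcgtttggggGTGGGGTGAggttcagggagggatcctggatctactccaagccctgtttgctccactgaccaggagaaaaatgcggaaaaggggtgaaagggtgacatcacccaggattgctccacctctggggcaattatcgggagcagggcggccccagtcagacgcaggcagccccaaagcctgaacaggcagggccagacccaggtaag
ACSL1: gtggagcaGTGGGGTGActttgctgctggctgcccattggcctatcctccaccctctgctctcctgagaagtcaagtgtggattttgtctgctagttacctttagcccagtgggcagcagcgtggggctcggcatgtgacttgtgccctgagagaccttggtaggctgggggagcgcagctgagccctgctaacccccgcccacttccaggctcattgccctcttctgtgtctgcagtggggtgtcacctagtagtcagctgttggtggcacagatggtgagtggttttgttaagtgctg
CIDEC: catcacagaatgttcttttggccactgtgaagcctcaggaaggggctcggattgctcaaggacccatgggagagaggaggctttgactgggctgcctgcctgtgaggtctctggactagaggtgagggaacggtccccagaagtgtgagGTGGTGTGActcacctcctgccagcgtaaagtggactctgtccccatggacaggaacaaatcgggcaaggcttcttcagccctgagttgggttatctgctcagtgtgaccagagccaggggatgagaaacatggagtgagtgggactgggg

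The palindrome CACGTG, an E-box that carbohydrate-responsive factors can bind, was in the windows of ELOVL5, LPIN2 and PLIN2, 5.36% of these windows against 7.26% of all. ATTGG, the inverted CCAAT box of the factor NF-Y, was in windows of 19 genes, 41.1% of these windows against 34.6% of all. A match is a description of the letters and not of binding.

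A further 59 genes of the same pathways, none among the 42, gave a comparison. Of these, 48 were tested. Against control, 16 rose and 3 fell at 20 µM, and 19 rose and 23 fell at 30 µM. That made 39.6% and 87.5% called, beside 34.2% and 60.8% of all genes. Between the doses, 18 were higher and 23 lower at 30 µM than at 20 µM, which made 85.4% called beside 57.0% of all genes. GPAT3, another glycerol phosphate acyltransferase of the endoplasmic reticulum, was at 4.45, 4.78 and 5.32 CPM in controls, 6.61, 6.22 and 6.37 CPM at 20 µM and 47.1, 46.0 and 48.2 CPM at 30 µM. Its level at 30 µM was far from every other library, a 9.70-fold rise against control (log2 3.28 ± 0.0827, adjusted p = 2.11e-26), beside 1.32-fold at 20 µM (0.40 ± 0.0988, adjusted p = 0.00159). MOGAT2, which makes diacylglycerol from monoacylglycerol, fell 1.99-fold at 30 µM against control (34.1 ± 0.891 against 67.9 ± 1.57 CPM, adjusted p = 4.77e-18).

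Of 9 genes of SREBP processing and lipogenic nuclear receptors, 4 rose at 20 µM and 7 rose and 1 fell at 30 µM, both against control. Of all genes, 17.2% were called higher and 16.9% lower at 20 µM against control, and 29.5% higher and 31.3% lower at 30 µM. At 30 µM PPARG, a nuclear receptor of lipid storage, was at 18.0 ± 2.54 CPM against 8.06 ± 0.0722 CPM in controls (log2 1.16, adjusted p = 5.64e-12). INSIG2, which holds SREBPs in the endoplasmic reticulum, was at 116 ± 9.16 against 53.1 ± 3.90 CPM (1.12, adjusted p = 6.47e-12). The liver X receptor NR1H2 (0.66) and MID1IP1, a partner of acetyl-CoA carboxylase (0.61), also rose at 30 µM against control. Of 7 further acyl-CoA synthetases, transporters and binding proteins tested, 5 fell and 2 rose at 30 µM. The fatty acid transporter SLC27A4 rose by 0.87 (adjusted p = 4.75e-17), and ACSF2, a mitochondrial acyl-CoA synthetase, fell by 1.21 (adjusted p = 8.97e-18). Of 9 further droplet formation and coat genes tested, 6 fell and 2 rose at the same dose. Of 5 genes tested of citrate export and mitochondrial fatty acid synthesis, 4 fell at 30 µM against control and 0 rose. ME1, the gene of NADPH supply in this group, had at most 3 counts in any library and was not tested. All 3 genes tested of lipolysis and lipophagy, ABHD5, LIPA and FAF2, rose at 30 µM against control. Between the doses ABHD5 and FAF2 were higher at 30 µM, and LIPA was lower (log2 -0.17, adjusted p = 7.52e-04). LIPE, MGLL and PNPLA5 had too few counts to test. Among 4 genes of lipoprotein secretion, APOB (log2 0.48), MIA2 (0.40) and SURF4 (0.09) rose at 30 µM against control. In this group 0 genes fell, and TM6SF2 was not past the test.

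**Figure D4:**
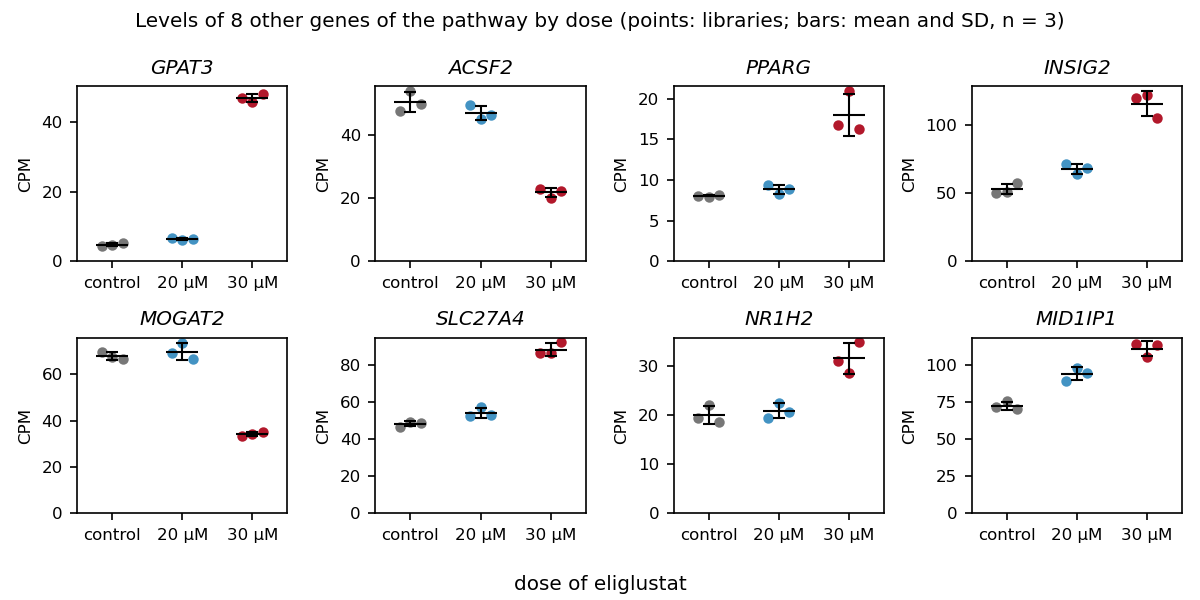
CPM of 8 further genes of the pathway (vertical axes, from 0) by dose of eliglustat (horizontal axes). Points are libraries, and bars give the mean and SD of n = 3. GPAT3 is at 47.1 ± 1.14 CPM at 30 µM, far above the other doses, and ACSF2 and MOGAT2 are lowest at 30 µM.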

How the data were processed

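The authors deposited 1 file of read counts per gene for each of 9 libraries. Per the submitters' processing notes, FastQC, STAR 2.7.10a, HTSeq and the hg38 build were used. The sources used here give neither strand setting nor annotation release. The labels name polyA RNA as the molecule, while their protocol describes a stranded kit with ribosomal depletion. The 5 closing HTSeq totals of each file, between 40.6% and 44.0% of records, were left out of library sizes and tests. Whether a further incubation named in the series text applies to these libraries is not stated.

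Symbols came from a reference table (62639 of 62703 identifiers matched), and positions and exon lengths from GENCODE 29 (58264 matched). From the deposited counts, filterByExpr chose the genes to test and TMM set the library scaling. The 3 comparisons were made in 1 robust quasi-likelihood fit of group means over 9 libraries (edgeR 4.0.16, R 4.3.3), at a biological coefficient of variation of 0.0529. The SE is the log2 change divided by the square root of F. The procedure was also run on simulated counts with known changes and libraries drawn independently. That setting lacks the shared deviations seen between libraries here, so no error rate for these data is drawn from it. Replicate libraries all differed by more than sampling noise, with a chi-square per gene of 2.10 to 8.02. Members and gene lists were chosen with earlier results of these data known.

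Library values are given for the 3 largest called changes at 30 µM per step, and for genes that rose at 20 µM against control and were lower at 30 µM than in control or at 20 µM. Of the other pathway genes, the 8 largest called changes at 30 µM with at least 5 CPM are named. Alternatives were other scalings, DESeq2 1.42.0, limma 3.58.1 voom, other filters, only the groups compared, a replicate block, a minimum change and each library left out.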

Additional observations from a re-analysis of the deposited data

How the results depend on the processing

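Over 39 genes, 3 comparisons and all alternatives other than a minimum change, 1812 of 1872 values kept their direction and their side of the threshold, 30 lost a call, 21 gained one and 9 changed direction. The lost calls were in 8 genes. The direction changed for AGPAT3 at 30 µM against control (0.01), which was -0.050 with upper-quartile factors, -0.20 with library size alone, -0.0015 with a mean of at least 50 counts, and -0.024 to 0.030 with 1 library left out, at or below 0 without control 3 or 30 µM library 3 (-0.0025). It also changed for ACLY at 30 µM against control (-0.068) and for ACSL1 (-0.086) and AGPAT5 (-0.027) at 30 µM against 20 µM, all with library size alone. ACSL4 at 20 µM against control ran from -0.083 to 1.46e-05 with 1 library left out, the highest being without 20 µM library 2. The cause was not tested. With a change of at least 1 log2 unit required, 309, 2822 and 2048 genes were called at 20 µM against control, 30 µM against control and 30 µM against 20 µM. Of the lipid genes that left 1, 10 and 6, with 1, 7 and 3 higher and 0, 3 and 3 lower. The 0 follows from the added requirement, beside 2 lower genes at 20 µM without it. Without a low-count filter, 1 lipid gene was lower at 20 µM in place of 2.

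Leaving out 1 library gave 28 to 30 lipid genes called at 20 µM against control (26 to 27 higher and 1 to 3 lower), 34 to 35 at 30 µM against control (20 to 21 and 14) and 32 to 33 between the doses (14 to 15 and 18 to 19). Without 20 µM library 1 the lower count at 20 µM was 1. Over all genes the counts were 5273 to 5611, 10061 to 10321 and 9276 to 9597. Correlations between the deviations of libraries with the same number ran from -0.202 to 0.352, the highest between library 3 at 30 µM and library 3 at 20 µM, and not every pair was above 0.1, so the numbers were not taken to pair the samples. With a replicate block, 5952, 10635 and 9955 genes were called, and 29, 35 and 34 lipid genes. At 20 µM against control the block gave ACACB an adjusted p of 0.0338 and DGAT1 one of 0.0505. Depth limits THRSP, SCD5 and G0S2, whose counts were too few to test.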
